A study of Mus musculus with 4 samples.

Results

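NANOG binding was examined in the windows around 5 genes of the self-renewal network of mouse embryonic stem cells (ESCs): Stat3, Socs3, Myc, Mycn and Sall4. The windows were all those of the deposited NANOG tables whose centre lay within 100 kb of 1 of these genes, and they numbered 29 of 21066, with 5 at Stat3, 8 at Socs3, 5 at Myc, 4 at Mycn and 7 at Sall4. Position alone decided which windows were taken, but the genes were chosen with earlier results of these data known. All 29 were bound by the threshold of the study, an RPKM (reads per window, scaled by window width and library total) of 0.9 or more in either condition, as were 16608 windows of the series. The lowest condition mean among the 29 was 1.52 RPKM in uninduced cells and 2.02 RPKM after auxin treatment, so all passed this threshold in both conditions. The windows themselves are peaks called on the pooled reads of both conditions, so 1 condition may have contributed more to a peak call. Most reads in the 29 windows came from the treated libraries, with 1246 and 346 against 261 and 533 in the uninduced ones. The set may therefore lean towards windows that are high after treatment, which was not tested. Windows are numbered within a locus from upstream to downstream in the direction of transcription of the gene (w1, w2 and so on in the plots), and distances run from the gene start to the window centre.

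The cells were ZHBT-O4AID ESCs of strain 129SV, which lack functional endogenous Oct4 (Oct4-/-). They carry a wild-type Oct4 transgene that doxycycline keeps silent (TetOFF Oct4), OCT4 fused to an auxin-inducible degron (CAG Oct4AID) and the plant protein TIR1 (CAG Tir1), which marks the fusion for destruction once the auxin indole-3-acetic acid (IAA) is added. The constitutive CAG promoter drives the degron fusion and TIR1, so the amount of OCT4 is not set by its own locus. Both groups carried all of these alleles and were grown with doxycycline in N2B27 medium with the inhibitors PD03 and Chiron and with mLIF, so both received LIF. Untreated cells (uninduced, 2 libraries) were compared with cells given 500 µM IAA for 1.5 h (2 libraries), and the comparison addresses where NANOG sits on the genome once OCT4 has been removed. The replicates were separate immunoprecipitations that the labels do not tie to separate cultures, so the p-values rest only on the spread between these libraries, which may be technical. Levels of OCT4 and of ESC marker transcripts were not analysed here, so the cell type rests on the labels.

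NANOG is a homeodomain transcription factor that shares many enhancers with OCT4 and SOX2 and that promotes self-renewal of naive ESCs. LIF acts through its receptor and JAK kinases on STAT3, which enters the nucleus, binds paired TTC and GAA half-sites and switches on targets that sustain self-renewal. SOCS3 is induced by STAT3 and inhibits the receptor complex, closing a feedback loop. MYC and MYCN are basic helix-loop-helix factors that pair with MAX on E-boxes and drive growth and proliferation, and Myc is a known target of LIF signalling. SALL4 is a zinc-finger factor of pluripotent cells that binds DNA with the NuRD deacetylase complex among its partners.

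The libraries were shallow and unequal. Total reads were 8236968 and 11674801 in uninduced replicates 1 and 2 and 19634763 and 5406307 in IAA replicates 1 and 2, so that 1 read in a 351-bp window was worth 0.346, 0.244, 0.145 and 0.527 RPKM. The 29 windows together held 261, 533, 1246 and 346 reads in the same order, with a median of 8, 15, 38 and 10 reads per window and a range from 1 to 84. The reads of a window are given below in that order, means with the SD of the 2 libraries, and changes as log2(RPKM + 0.1) of IAA minus uninduced with the standard error (SE) of limma, a linear model with moderated variances. The moderation draws each window's variance towards a trend over all bound windows. An SE or p-value of limma is thus not a measure of how well that window's own libraries agree. Socs3 window 4 and Sall4 window 3 have SE of 0.43 and 0.44. Their SDs (uninduced, IAA) were 0.0271 and 0.999 RPKM at the former and 1.98 and 5.03 RPKM at the latter. Because of the unequal depth, read numbers are comparable between windows of 1 library, and RPKM between libraries. RPKM values were scaled to each library's own total, with no spiked-in chromatin. The share of a library's reads that fell in bound windows was 1.60% and 2.28% before IAA and 3.05% and 3.24% with it, and the part of this share in the changes below was not tested.

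The sequences under the windows on which the results turn are given first, as the central bases on the plus strand of GRCm38 (from RefSeq's copy of the assembly), which the files call mm10. The strongest window of each locus is shown, by mean RPKM over the 4 libraries, and beside these every other window that was called higher or lower after IAA. Capitals mark motifs found on either strand: the NANOG core TAATGG, the STAT half-site pair TTCNNNGAA, the ESRRB site AAGGTCA and the KLF site GGGNGTGG. The octamer ATGCAAAT, the SOX site CATTGTT and the E-box CACGTG were searched too and are in none of the 11 stretches.
Stat3 window 5, strongest at Stat3, chr11:100891761-100891961: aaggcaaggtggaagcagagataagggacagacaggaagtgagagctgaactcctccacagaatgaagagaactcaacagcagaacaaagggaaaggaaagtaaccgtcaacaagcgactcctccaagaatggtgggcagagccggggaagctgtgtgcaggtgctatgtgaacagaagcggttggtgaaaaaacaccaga
Socs3 window 1, strongest at Socs3, chr11:118035070-118035270: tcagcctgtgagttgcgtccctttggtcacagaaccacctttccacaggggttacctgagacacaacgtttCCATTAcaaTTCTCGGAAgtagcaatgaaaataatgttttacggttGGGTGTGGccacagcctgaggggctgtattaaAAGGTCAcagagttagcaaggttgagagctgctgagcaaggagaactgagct
Socs3 window 3, higher after IAA, chr11:117990156-117990356: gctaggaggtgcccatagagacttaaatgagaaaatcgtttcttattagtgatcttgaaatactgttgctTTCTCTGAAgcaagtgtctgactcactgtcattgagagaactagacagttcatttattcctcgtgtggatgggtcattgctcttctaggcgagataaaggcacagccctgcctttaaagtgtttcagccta
Socs3 window 8, higher after IAA, chr11:117932037-117932237: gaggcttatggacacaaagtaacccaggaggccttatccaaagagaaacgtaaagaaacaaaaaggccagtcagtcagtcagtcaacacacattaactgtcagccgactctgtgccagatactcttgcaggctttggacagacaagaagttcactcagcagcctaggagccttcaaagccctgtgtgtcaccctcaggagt
Myc window 3, strongest at Myc, chr15:62012708-62012908: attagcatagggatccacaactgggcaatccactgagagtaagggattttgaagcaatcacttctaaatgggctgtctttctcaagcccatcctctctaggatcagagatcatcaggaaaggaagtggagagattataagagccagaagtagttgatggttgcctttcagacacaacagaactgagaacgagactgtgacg
Myc window 5, higher after IAA, chr15:62089982-62090182: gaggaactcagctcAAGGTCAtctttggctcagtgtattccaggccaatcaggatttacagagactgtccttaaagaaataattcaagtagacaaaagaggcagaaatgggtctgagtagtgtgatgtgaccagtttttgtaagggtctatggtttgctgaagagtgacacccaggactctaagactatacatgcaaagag
Mycn window 4, strongest at Mycn, chr12:12938770-12938970: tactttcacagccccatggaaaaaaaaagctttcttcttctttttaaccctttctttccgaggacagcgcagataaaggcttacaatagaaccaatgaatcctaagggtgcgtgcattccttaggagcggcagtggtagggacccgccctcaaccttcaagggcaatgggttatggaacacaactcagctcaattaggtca
Sall4 window 1, strongest at Sall4, chr2:168867351-168867551: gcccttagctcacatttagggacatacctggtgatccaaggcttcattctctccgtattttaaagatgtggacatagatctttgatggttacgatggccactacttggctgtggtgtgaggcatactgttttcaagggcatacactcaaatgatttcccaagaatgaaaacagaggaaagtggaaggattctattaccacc
Sall4 window 2, lower after IAA, chr2:168838904-168839104: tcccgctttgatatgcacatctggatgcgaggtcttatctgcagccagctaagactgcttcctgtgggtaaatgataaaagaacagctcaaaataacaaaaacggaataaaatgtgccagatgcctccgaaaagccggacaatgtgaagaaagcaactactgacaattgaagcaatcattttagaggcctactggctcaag
Sall4 window 3, higher after IAA, chr2:168769425-168769625: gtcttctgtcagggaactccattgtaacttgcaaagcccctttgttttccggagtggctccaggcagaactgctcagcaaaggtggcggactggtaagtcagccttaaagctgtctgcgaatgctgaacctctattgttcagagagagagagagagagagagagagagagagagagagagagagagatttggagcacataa
Sall4 window 6, higher after IAA, chr2:168731229-168731429: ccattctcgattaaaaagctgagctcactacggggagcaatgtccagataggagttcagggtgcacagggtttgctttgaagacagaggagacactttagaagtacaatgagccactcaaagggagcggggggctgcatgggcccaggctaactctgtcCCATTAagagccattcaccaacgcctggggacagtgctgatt

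Of the 11 stretches, 4 carry capitals. Socs3 window 1 holds a NANOG core, a STAT site, a KLF site and an ESRRB site, the NANOG core and the STAT site 3 bases apart, and Socs3 window 3 holds a STAT site. Myc window 5 holds an ESRRB site and Sall4 window 6 a NANOG core. Over the whole 351 bp of the windows, the STAT letters were present in 6 of the 29, against 13.3% of all bound windows, and 5 of these 6 were at Socs3 and the other at Mycn. The NANOG core was in 6 (20.9% of bound windows), the KLF letters in 6 (15.9%), the ESRRB letters in 5 (18.7%), the SOX letters in 3 (14.3%) and the E-box in 2 (3.57%). The octamer was in 0 of the 29, as was the joined OCT-SOX composite that contains it, against 2.96% and 0.0662% of bound windows. Each match describes letters in a window and does not show that a factor binds there. GC content had a median of 47.0% in the 29 windows and 46.2% in all bound windows, and 0 of the 29 were over 50% repeat.

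The OCT4 sites and the chromatin classes behind the flags came from published data of other ESC lines, so OCT4 binding was not measured in these cells. By flag, 15 of the 29 windows (51.7%) lay within 1 kb of an OCT4 site, against 23.7% of bound windows, and 10 (34.5%) belonged to the active enhancer class, against 10.6%. Of the 10, 8 also had an OCT4 site. Of the other classes, the active promoter flag was on 1 window, at Sall4, and the repressed flag on 0, and 12 windows carried no flag. Most windows were distal: 16 lay between genes, 9 had their centre within 10 kb of the start of the gene they were chosen by, and 0 overlapped an untranslated region. In the plot of RPKM along each locus, the flags and values of all 29 windows are set against the gene start.

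**Figure D1:**
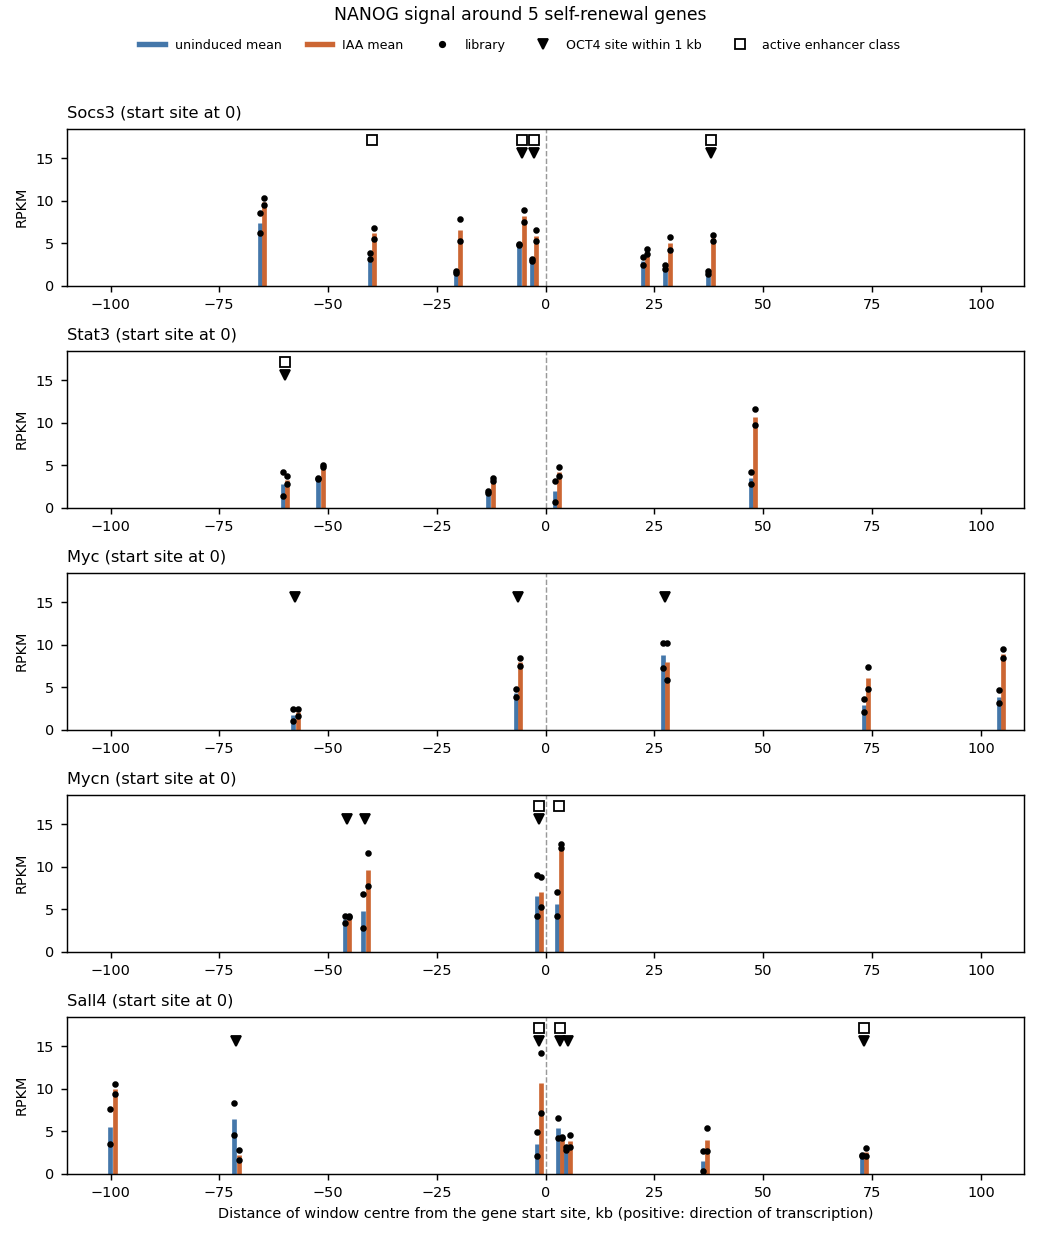
NANOG signal (RPKM, vertical axis) of each of the 29 windows against the distance of its centre from the gene start site (kb, positive in the direction of transcription), with 1 panel per gene. Bars are condition means of 2 libraries (blue uninduced, orange IAA), points are libraries, triangles mark an OCT4 site within 1 kb and squares the active enhancer class. The orange bar is the taller in all 8 Socs3 windows, and the clearest exception is the Sall4 window 71061 bp upstream, where the mean falls from 6.40 to 2.17 RPKM. Of all 16608 bound windows, 14243 had a positive log2 change, and in 60.5% both IAA libraries were above both uninduced ones, a stricter measure than taller bars.

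After IAA, NANOG signal rose in 7 of the 29 windows and fell in 1 (limma on log2(RPKM + 0.1), fitted over all 16608 bound windows, Benjamini-Hochberg adjusted p under 0.05). Over all bound windows 15.0% were called higher and 0.337% lower. At least 1 window rose at each of the 5 loci, and the window that fell was at Sall4. Both IAA libraries exceeded both uninduced ones in 19 of the 29 windows and lay below them in 1, against 60.5% and 4.23% of bound windows, and the groups overlapped in 9. An unadjusted p under 0.05 was reached by 14 higher and 1 lower windows, against 33.1% and 0.861% of bound windows. The median change was 0.82 on the log2 scale (quartiles 0.34 and 1.18), close to the 0.76 (0.30 and 1.16) of all bound windows, and 16 of the 29 lay above the latter value. On this scale changes of low values are understated.

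The rise in the loci was thus of the size of the rise across the series, and its calls depended on the scaling. When all libraries were set to equal medians, the median change of all bound windows went from 0.76 to 0.06 and that of the 29 from 0.82 to 0.12. The calls among the 29 then went from 7 higher and 1 lower to 0 higher and 1 lower, against 0.283% higher and 1.19% lower in all bound windows. The lower call was the same Sall4 window. The signs of the changes went from 26 positive and 3 negative to 17 positive and 12 negative. Before this scaling, 14243 of the 16608 bound windows had a positive change and 2365 a negative one, so positive signs prevailed across the series too. For each window that was called, its distance from the median change of all bound windows is therefore given beside its change. Leaving out a library leaves 1 in its group, and the calls did not hold across these fits. Without uninduced replicate 1 the median change was 0.51 in the 29 and 0.51 over all bound windows. Without uninduced replicate 2 it was 0.89, against 0.94 over all bound windows. Without IAA replicate 1 or 2 it was 0.78 and 0.78, against 0.77 and 0.76.

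**Figure D2:**
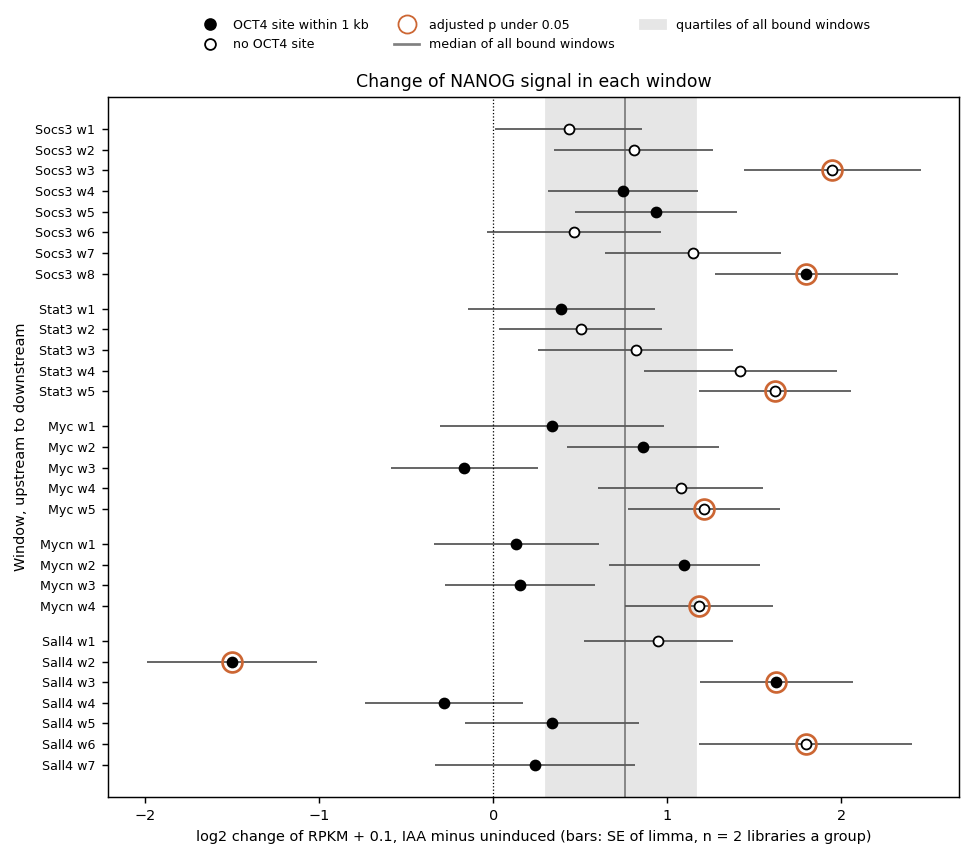
Change of NANOG signal in each window (log2 of RPKM + 0.1, IAA minus uninduced, horizontal axis) with its standard error from limma (2 libraries a group). Filled points have an OCT4 site within 1 kb, ringed points passed an adjusted p of 0.05, and the grey line and band are the median (0.76) and quartiles (0.30 and 1.16) of all bound windows. Most windows sit around the grey band, 7 ringed points lie to its right or at its right edge, and Sall4 window 2 stands alone on the left at -1.50.

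At Stat3 (chr11:100885098-100939540, minus strand), which encodes the transducer of the LIF signal, the strongest of the 5 windows was also the 1 that rose. Stat3 window 5 (chr11:100891686-100892036) lay in an intron near the 3' end of the gene, 47679 bp downstream of the gene start and 1549 bp from the start of a shorter annotated Stat3 transcript, with no flag. It measured 2.77 and 4.15 RPKM in uninduced cells and 9.72 and 11.6 RPKM after IAA, from 8, 17, 67 and 22 reads. The IAA libraries were well above both uninduced libraries. The mean went from 3.46 ± 0.977 to 10.7 ± 1.32 RPKM (SD, n = 2), 3.08-fold, a change of 1.62 ± 0.44 (SE) with a limma adjusted p of 0.00798. This lay 0.86 above the median of all bound windows, and with equal library medians the change was 0.92 with a limma adjusted p of 0.121.

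The other 4 Stat3 windows did not pass the test. Within the gene, in an intron near its start, Stat3 window 4 (chr11:100936716-100937066, 2649 bp downstream of the start, no flag) held 2 and 13 reads in uninduced cells and 33 and 7 after IAA, a change of 1.42 ± 0.56 from 1.93 ± 1.75 to 4.24 ± 0.777 RPKM, with a limma adjusted p of 0.0596. Its uninduced libraries were far apart, at 0.692 and 3.17 RPKM, but both lay below the IAA libraries. Upstream, Stat3 window 3 (chr11:100952044-100952394, 12679 bp from the start, no flag) held 5, 8, 24 and 6 reads, with a change of 0.82 ± 0.56. Stat3 window 2 (chr11:100991125-100991475, 51760 bp upstream, no flag) held 10, 14, 35 and 9 reads, with a change of 0.50 ± 0.47, or of -0.20 with equal library medians. In both of these windows the IAA libraries lay above the uninduced ones. Stat3 window 1 (chr11:100999253-100999603, 59888 bp upstream), between Cavin1 and Atp6v0a1, was the only Stat3 window with an OCT4 site and with the enhancer flag. It held 4, 17, 19 and 7 reads, its groups overlapped, and its change was 0.39 ± 0.54, or -0.31 with equal library medians.

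At Socs3 (chr11:117966079-117970047, minus strand), the feedback inhibitor of the pathway, the IAA libraries exceeded the uninduced ones in all 8 windows, against 60.5% of bound windows. Of the 8 windows 2 rose, against 15.0% of bound windows called higher. Socs3 window 3 (chr11:117990081-117990431) lay in an intron of Pgs1, 20209 bp upstream of Socs3, with no flag. It measured 1.73 and 1.46 RPKM in uninduced cells and 5.22 and 7.90 RPKM after IAA, from 5, 6, 36 and 15 reads. This was the largest change of the 29 windows: the mean went from 1.60 ± 0.188 to 6.56 ± 1.90 RPKM (SD, n = 2), 4.11-fold, and the log2 change was 1.95 ± 0.51 with a limma adjusted p of 0.00620, 1.19 above the median of all bound windows. Socs3 window 8 (chr11:117931962-117932312), 37910 bp downstream of the start in intergenic sequence, had an OCT4 site and the enhancer flag. It measured 1.38 and 1.71 RPKM in uninduced cells and 5.95 and 5.27 RPKM after IAA, from 4, 7, 41 and 10 reads. Its libraries were close within each condition, and its change was 1.80 ± 0.52, 3.63-fold, with a limma adjusted p of 0.0133, 1.04 above the median. With equal library medians the changes of windows 3 and 8 were 1.25 and 1.10, with limma adjusted p of 0.163 and 0.217.

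The strongest Socs3 window did not pass the test. Socs3 window 1 (chr11:118034995-118035345, in an intron of Dnah17, 65123 bp upstream, no flag), which holds the 4 motifs shown above, measured 6.23 and 8.54 RPKM in uninduced cells and 10.3 and 9.49 RPKM after IAA, from 18, 35, 71 and 18 reads. The mean went from 7.38 ± 1.64 to 9.89 ± 0.577 RPKM (SD, n = 2), a change of 0.43 ± 0.42 with a limma adjusted p of 0.458, or of -0.26 with equal library medians, so its direction depended on the scaling. The ratio of window 3 to window 1 in the same library, which no scaling of the library alters, was 0.278 and 0.171 before IAA and 0.507 and 0.833 with it. This and the ratios given further on were chosen after the values were seen and are given without a test.

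Close to the Socs3 promoter stood a pair of windows that both had an OCT4 site and the enhancer flag. Socs3 window 5 (chr11:117972618-117972968, 2746 bp upstream) held 9, 12, 45 and 10 reads, with a change of 0.94 ± 0.47, from 3.02 ± 0.131 to 5.90 ± 0.891 RPKM. Socs3 window 4 (chr11:117975427-117975777, 5555 bp upstream) held 14, 20, 52 and 17 reads, with a change of 0.75 ± 0.43, from 4.86 ± 0.0271 to 8.25 ± 0.999 RPKM. Relative to the median change of all bound windows they lay 0.18 above and 0.01 below. The remaining Socs3 windows were a Pgs1 intron and a pair of intergenic sites. Socs3 window 2 (chr11:118009814-118010164, 39942 bp upstream, enhancer flag without an OCT4 site) held 11, 13, 38 and 13 reads, with a change of 0.81 ± 0.46. Socs3 window 6 (chr11:117947025-117947375, 22847 bp downstream, no flag) held 7, 14, 30 and 7 reads, with a change of 0.46 ± 0.50, or of -0.23 with equal library medians. Socs3 window 7 (chr11:117941858-117942208, 28014 bp downstream, no flag) held 7, 8, 29 and 11 reads, with a change of 1.15 ± 0.50, with a limma adjusted p of 0.0928.

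At Myc (chr15:61985391-61990374, plus strand), which encodes the growth-promoting factor MYC, the strongest window did not rise and the most distant did. Myc window 3 (chr15:62012633-62012983, intergenic, 27417 bp downstream of the start) had an OCT4 site and measured 7.26 and 10.2 RPKM in uninduced cells and 10.2 and 5.80 RPKM after IAA, from 21, 42, 70 and 11 reads. The groups overlapped: the mean was 8.76 ± 2.11 and 7.98 ± 3.08 RPKM (SD, n = 2), and the change was -0.17 ± 0.42 with a limma adjusted p of 0.789. Its sign turned without uninduced replicate 2 (0.08) and without IAA replicate 2 (0.23). With equal library medians the change was -0.86 with a limma adjusted p of 0.161. Myc window 5 (chr15:62089907-62090257), in an intron of the long non-coding RNA gene Pvt1 and without a flag, lay 104691 bp from the Myc start and 99708 bp from the end of the gene, at the edge of the 100 kb. It measured 3.11 and 4.64 RPKM in uninduced cells and 8.42 and 9.49 RPKM after IAA, from 9, 19, 58 and 18 reads. The mean went from 3.87 ± 1.08 to 8.95 ± 0.756 RPKM (SD, n = 2), 2.31-fold, a change of 1.21 ± 0.44 with a limma adjusted p of 0.0422. This was 0.46 above the median of all bound windows. Without uninduced replicate 1 the change was 0.93 with a limma adjusted p of 0.0599, and with equal library medians it was 0.51 with a limma adjusted p of 0.401.

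The ratio of Myc window 5 to window 3 within a library was 0.429 and 0.452 before IAA and 0.829 and 1.64 with it. The order of the 2 windows was therefore reversed in IAA replicate 2 alone. Of the others, Myc window 4 (chr15:62058825-62059175, Pvt1 intron, 73609 bp downstream, no flag) held 6, 15, 51 and 9 reads, with a change of 1.08 ± 0.47, with a limma adjusted p of 0.0925. Myc window 2 (chr15:61978913-61979263, 6303 bp upstream, OCT4 site) held 14, 16, 52 and 16 reads, with a change of 0.86 ± 0.44, from 4.37 ± 0.663 to 7.99 ± 0.627 RPKM, with a limma adjusted p of 0.145. In both, the IAA libraries were above the uninduced ones. Myc window 1 (chr15:61927694-61928044, intergenic, 57522 bp upstream, OCT4 site) was the weakest of the 29 by mean RPKM, with 7, 4, 17 and 3 reads, and its change of 0.33 ± 0.64 was -0.36 with equal library medians.

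At Mycn (chr12:12936093-12941914, minus strand), the gene of the MYC paralogue MYCN, neighbouring windows on either side of the gene start differed in their values. Mycn window 4 (chr12:12938695-12939045), in an intron 3044 bp downstream of the start, had the enhancer flag without an OCT4 site and was the strongest of all 29 windows by mean RPKM. It measured 4.15 and 7.08 RPKM in uninduced cells and 12.2 and 12.6 RPKM after IAA, from 12, 29, 84 and 24 reads. The mean went from 5.61 ± 2.07 to 12.4 ± 0.325 RPKM (SD, n = 2), 2.21-fold, a change of 1.18 ± 0.42 with a limma adjusted p of 0.0412, 0.42 above the median of all bound windows. The call was a narrow one: the limma adjusted p was 0.0527 when windows under the threshold were fitted too, and without uninduced replicate 1 the change was 0.80 with a limma adjusted p of 0.0919. With equal library medians the change was 0.48 with a limma adjusted p of 0.370.

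Mycn window 3 (chr12:12943292-12943642), 1553 bp upstream of the start, had an OCT4 site and the enhancer flag and held letters of the NANOG core and of a STAT site. It measured 4.15 and 9.03 RPKM in uninduced cells and 8.85 and 5.27 RPKM after IAA, from 12, 37, 61 and 10 reads. The groups overlapped and the change was 0.15 ± 0.43, or -0.54 with equal library medians. The ratio of window 4 to window 3 within a library was 1.00 and 0.784 before IAA and 1.38 and 2.40 with it, so window 4 exceeded window 3 only in the IAA libraries. The 2 upstream windows both had OCT4 sites. Mycn window 2 (chr12:12983160-12983510, 41421 bp upstream, intergenic) held 8, 28, 53 and 22 reads, with a change of 1.10 ± 0.43, from 4.80 ± 2.87 to 9.64 ± 2.76 RPKM, with a limma adjusted p of 0.0607. Mycn window 1 (chr12:12987445-12987795, in an exon of the long non-coding RNA gene Gm35208, 45706 bp upstream) held 12, 14, 28 and 8 reads and had almost equal means of 3.78 ± 0.519 and 4.14 ± 0.108 RPKM. Its change was 0.13 ± 0.47, or -0.57 with equal library medians.

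At Sall4 (chr2:168748332-168767943, minus strand), windows moved in both directions. Sall4 window 2 (chr2:168838829-168839179), in intergenic sequence 71061 bp upstream and with an OCT4 site, was the only 1 of the 29 windows that fell. It measured 4.50 and 8.30 RPKM in uninduced cells and 2.76 and 1.58 RPKM after IAA, from 13, 34, 19 and 3 reads. Both IAA libraries were below both uninduced libraries. The mean went from 6.40 ± 2.69 to 2.17 ± 0.832 RPKM (SD, n = 2), to 0.339 of its level, and the change was -1.50 ± 0.49 with a limma adjusted p of 0.0252. Relative to the median of all bound windows the change was -2.26, and with equal library medians it was -2.20 with a limma adjusted p of 0.0180. Without uninduced replicate 1 or 2 the change was -1.94 or -1.07, and without IAA replicate 1 or 2 it was -1.89 or -1.12.

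Sall4 window 3 (chr2:168769350-168769700), 1582 bp upstream of the start, with an OCT4 site and the enhancer flag, moved the other way. It measured 2.08 and 4.88 RPKM in uninduced cells and 7.11 and 14.2 RPKM after IAA, from 6, 20, 49 and 27 reads. Every IAA library was above every uninduced library, though the replicates of each condition were spread. The mean went from 3.48 ± 1.98 to 10.7 ± 5.03 RPKM (SD, n = 2), 3.07-fold, a change of 1.63 ± 0.44 with a limma adjusted p of 0.00809, 0.87 above the median of all bound windows. With equal library medians the change was 0.93 with a limma adjusted p of 0.206. It was 1.03 without uninduced replicate 1 and 1.13 without IAA replicate 2. Within a library, the ratio of window 3 to window 2 was 0.462 and 0.588 before IAA and 2.58 and 9.0 with it, a 9.25-fold shift of the geometric mean and the largest of the 6 pairs whose ratio was taken. The last ratio rests on the 3 reads of window 2 in IAA replicate 2.

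The third call at Sall4 rested on few reads. Sall4 window 6 (chr2:168731154-168731504), in an intron of the neighbouring flippase gene Atp9a, 36614 bp downstream and with no flag, measured 0.346 and 2.68 RPKM in uninduced cells and 5.37 and 2.63 RPKM after IAA, from 1, 11, 37 and 5 reads. The groups overlapped. The change was 1.80 ± 0.61 with a limma adjusted p of 0.0322, 1.04 above the median of all bound windows, and with equal library medians it was 1.10 with a limma adjusted p of 0.468. It was 0.47 with a limma adjusted p of 0.570 without uninduced replicate 1, the library in which the window held 1 read, and 3.12 without uninduced replicate 2. A listed value of 1 read may also stand for 0 reads, since no window was listed at 0. The strongest window of the locus, Sall4 window 1 (chr2:168867276-168867626, intergenic, 99508 bp upstream, no flag), measured 3.46 and 7.56 RPKM in uninduced cells and 9.43 and 10.5 RPKM after IAA, from 10, 31, 65 and 20 reads. Its mean went from 5.51 ± 2.90 to 9.99 ± 0.784 RPKM (SD, n = 2), a change of 0.95 ± 0.43 with a limma adjusted p of 0.102. Without uninduced replicate 1 that change was 0.39 with a limma adjusted p of 0.458, and without uninduced replicate 2 it was 1.50 with a limma adjusted p of 0.000106.

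The 3 other Sall4 windows, all with OCT4 sites, had overlapping groups. Sall4 window 4 (chr2:168764525-168764875, Sall4 intron, 3243 bp downstream of the start) was the only window with the active promoter flag and also had the enhancer flag. Its centre lay 546 bp from the start of another annotated Sall4 transcript. The window held 12, 27, 30 and 8 reads and its change was -0.28 ± 0.45, from 5.37 ± 1.72 to 4.28 ± 0.0970 RPKM. With equal library medians the change was -0.98 with a limma adjusted p of 0.143. Sall4 window 5 (chr2:168762609-168762959, Sall4 intron, 5159 bp downstream, no chromatin class) held 8, 13, 31 and 6 reads, with a change of 0.34 ± 0.50, or of -0.36 with equal library medians. Sall4 window 7 (chr2:168694631-168694981, Atp9a intron, 73137 bp downstream, enhancer flag) held 6, 9, 21 and 4 reads, with a change of 0.24 ± 0.57, or of -0.46 with equal library medians. Around the Sall4 start, then, window 3 rose while windows 4 and 5, on its other side, did not pass the test. The difference between window 3 and windows 4 and 5 was not itself tested. The ratio of window 4 to window 2 was 0.923 and 0.794 before IAA and 1.58 and 2.67 with it.

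The distribution of reads among the windows of a locus does not depend on how libraries are scaled. Sall4 window 2 took 23.2% (exact 95% binomial interval 13.0 to 36.4) and 23.4% (16.8 to 31.2) of the reads in the Sall4 windows in uninduced cells, and 7.54% (4.60 to 11.5) and 4.11% (0.856 to 11.5) after IAA. Its IAA intervals lay apart from its uninduced ones, which held for none of the other 28 windows in their loci. These intervals cover counting error only, and the comparison was added after the data were seen. Sall4 window 3 took a mean of 12.3% in uninduced cells and 28.2% after IAA. Among the other loci the mean share of Stat3 window 5 went from 26.1% to 40.4%, that of Mycn window 4 from 27.1% to 37.3% and that of Myc window 3 from 40.3% to 23.8%. In all, both IAA shares were above both uninduced shares in 8 of the 29 windows and below them in 10, and since shares of a locus add to a fixed total these movements are not independent. Shares were not counted at other loci, so no background stands beside these numbers.

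**Figure D3:**
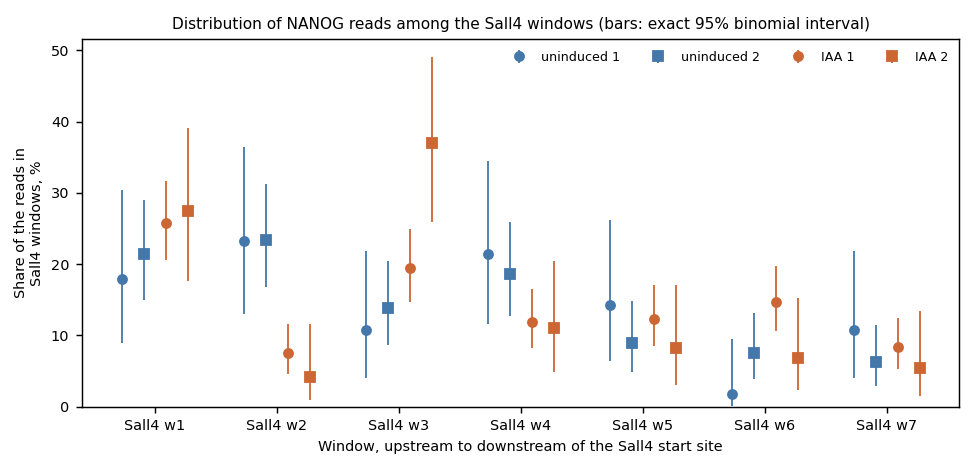
Share of the reads in the Sall4 windows that each of the 7 windows took (%, vertical axis), per library, with exact 95% binomial intervals for counting error. Blue marks are uninduced and orange marks IAA libraries, circles replicate 1 and squares replicate 2. Window 2 drops from 23.2% and 23.4% to 7.54% and 4.11%, and window 3 is the window with the highest share in IAA replicate 2.

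Summed over its windows, every locus had more NANOG signal in both IAA libraries than in both uninduced libraries. The exact two-sided permutation test gives p = 0.333 for such a split of 2 against 2 libraries, which is the smallest it can give. The sum at Socs3 was 25.9 and 28.1 RPKM in uninduced cells and 49.6 and 53.2 RPKM after IAA, a log2 change of 0.93. At Stat3 it was 10.03 and 16.8 against 25.8 and 26.9 RPKM, a change of 1.02. Without uninduced replicate 1 the change at Stat3 was 0.65, and without uninduced replicate 2 it was 1.39. At Mycn the sum was 15.2 and 26.4 against 32.8 and 33.7 RPKM (0.73), at Myc 19.7 and 23.4 against 36.0 and 30.0 RPKM (0.61), and at Sall4 19.4 and 35.4 against 36.6 and 38.5 RPKM (0.52). Uninduced replicate 2 was thus close to the IAA libraries at Sall4. Without uninduced replicate 1 the change was 0.34 at Mycn and 0.08 at Sall4, and without uninduced replicate 2 it was 1.13 and 0.95. Per window, the mean signal went from 3.38 ± 0.188 to 6.43 ± 0.318 RPKM at Socs3 and from 3.91 ± 1.62 to 5.36 ± 0.192 RPKM at Sall4 (SD, n = 2). After division by the library's median over bound windows the changes were 0.21 at Socs3, 0.30 at Stat3, 0.01 at Mycn, -0.11 at Myc and -0.20 at Sall4, and the IAA libraries were both above the uninduced ones only at Socs3 and Stat3.

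**Figure D4:**
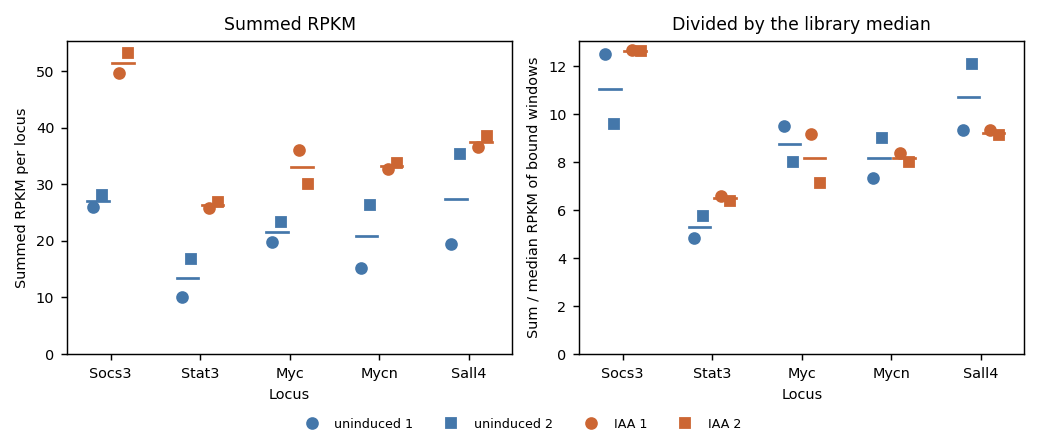
NANOG signal summed over the windows of each locus in the 4 libraries (points, circles replicate 1 and squares replicate 2, with condition means as lines), as RPKM on the left and divided by the median RPKM of the library's bound windows on the right. On the left every orange point is above every blue point of its locus, and on the right this remains at Socs3 and Stat3, with Socs3 uninduced replicate 1 at 12.5 just under the IAA values of 12.7 and 12.6.

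Windows with an OCT4 site had a lower median change than those without, in these loci as across the series. The median change was 0.34 in the 15 windows with a site and 1.11 in the 14 without, a difference of -0.77, beside medians of 0.39 and 0.86 and a difference of -0.47 over all bound windows. Both IAA libraries were above both uninduced libraries in 6 of the 15 and in 13 of the 14, against 41.8% and 66.4% of bound windows with and without a site. By limma, calls among the 15 were 2 higher and 1 lower, against 6.69% and 1.15% of bound windows with a site, and among the 14 were 5 higher and 0 lower, against 17.6% and 0.0868% of those without. The difference was -0.44 without uninduced replicate 1 and also without IAA replicate 2. Within single libraries, the median level (log2 scale) of windows with a site minus that of the others was 0.26 and 0.27 in uninduced cells, beside 0.13 and -0.25 after IAA, and the SD of this level difference between replicates was 0.19. The median changes by locus rest on few windows. The 3 Socs3 windows with a site had a median of 0.94 and the 5 without one 0.81. At Mycn the values were 0.15 (3 windows) and 1.18 (1 window), and at Myc 0.33 (3) and 1.14 (2). At Sall4 they were 0.24 (5) and 1.37 (2), and at Stat3 0.39 (1) and 1.12 (4). No test was made over the windows, which are not replicates. In the 10 windows of the enhancer class the median change was 0.78, beside 0.66 for that class in all bound windows.

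The windows next outside the loci were looked up as well. The nearest window outside the 100 kb lay 107493 bp from Mycn (3.39 RPKM in uninduced cells and 5.46 after IAA), 120574 bp from Stat3 (0.956 and 3.20), 128971 bp from Sall4 (0.417 and 0.336, under the threshold), 133854 bp from Socs3 (0.956 and 2.89) and 147855 bp from Myc (0.295 and 0.336, under the threshold). Just inside lay Sall4 window 1, at 99508 bp, and Myc window 5, at 99708 bp from the gene. A limit of 50 kb would have kept 7 windows at Socs3, 3 at Stat3, 2 at Myc, 4 at Mycn and 4 at Sall4. The log2 changes of the sums would then be 1.08 at Socs3, 1.39 at Stat3, 0.28 at Myc, 0.73 at Mycn and 0.84 at Sall4, and Myc window 5 and Sall4 window 2, the only lower call, would lie outside.

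The other genes of these pathways were taken from 3 lists. For 21 genes of LIF and JAK/STAT signalling, 20 had a bound window within 100 kb, and of their 72 windows outside the 29 above 11 were called higher and 2 lower by limma, with a median change of 0.66. The windows called lower were at Lifr, a subunit of the LIF receptor, and at Pim3, a kinase gene. The strongest window of Lifr had mean signals of 29.4 and 51.0 RPKM, that of Klf4, a pluripotency factor downstream of STAT3, 27.2 and 47.0 RPKM, and that of Tfcp2l1, another such target, 14.2 and 9.19 RPKM, in uninduced and IAA cells. For 11 genes of the MYC network 8 had a window, and of 27 windows 6 were higher and 0 lower, with a median change of 0.92. Max, the obligate partner of MYC, had 5 windows with 2 called higher, and its strongest went from 5.12 to 11.1 RPKM. For 12 genes of the SALL family and its partners 10 had a window, and of 32 windows 3 were higher and 0 lower, with a median change of 0.74. Across the 3 lists 20 of 131 windows were higher and 2 lower, beside 15.0% and 0.337% of all bound windows, and the share higher ran from 9.38% in the SALL list to 22.2% in the MYC list. Differences between the lists and the 5 loci were not tested. Stat5a and Stat5b lie next to Stat3 and share some of its windows.

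For the strongest window of each locus, the bound window elsewhere with the most similar 4 values was sought by Euclidean distance of log2(RPKM + 0.1). The match of Stat3 window 5 had its nearest gene start at Usp48 (distance 0.0933), that of Socs3 window 1 at 4932412D23Rik (0.0863), that of Mycn window 4 at Otog (0.151) and that of Sall4 window 1 at Specc1l (0.0821). Between 127 and 231 bound windows lay within 0.5 of each of these 4. Myc window 3 had fewer like it, with 15 windows within 0.5 and the nearest, at Rarres1, at 0.310.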

How the data were processed

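NANOG ChIP-seq was measured in ZHBT-O4AID ESCs, 2 uninduced and 2 IAA libraries, grouped by the labels. Per the methods and labels, the authors mapped reads with Bowtie2 2.3.4.3 to GRCm38 (mm10), removed duplicates with SAMtools, called peaks with MACS2 on both conditions together and computed the deposited RPKM with DiffBind over 351-bp windows. Each deposited condition value equalled the average of its 2 libraries to within 5.0e-06. Deposited flags mark an OCT4 site within 1 kb and chromatin classes, both from published data of other ESC lines.

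Here, 100.0% of RPKM values were whole multiples (within 0.001 reads) of the smallest value of a library, taken as 1 read, which gave reads per window. Counting error limits single windows, since 1 read is 0.145 to 0.527 RPKM. limma 3.58.1 (R 4.3.3; two-sided moderated test by lmFit and eBayes, variance trend on, adjusted by Benjamini-Hochberg, threshold 0.05) was fitted to log2(RPKM + 0.1) over all 16608 bound windows. Locus sums were compared by an exact permutation test. Intervals of shares are exact binomial ones at 95%. Positions are 1-based, and genes came from GENCODE release M21. Python 3.11.15, numpy 2.4.6, pandas 2.3.3, scipy 1.17.1 and matplotlib 3.10.9 were used, and the scripts were tested on simulated data. Every window of the loci was described, with full statistics for the strongest of each locus and for each window past the threshold. The members, gene lists and tests were chosen with earlier results of these data known. Alternatives were other pseudocounts (0.01 and 0.5 RPKM), all windows, a threshold of 2 RPKM, quantile normalization, equal library medians, voom on the reads, no variance trend, a replicate block, a limit of 50 kb and leaving out each library. Ratios and shares within a locus were added after the data were seen.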

Additional observations from a re-analysis of the deposited data

How the results depend on the processing

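Pseudocounts of 0.01 and 0.5 RPKM, a threshold of 2 RPKM and voom on the reads all left 7 windows higher and 1 lower, the same 8 windows as reported. Over all windows fitted, these settings called 2244 to 2542 higher and 49 to 58 lower. With all 21066 windows fitted the calls were 5 higher and 1 lower, against 2084 and 42 of all those fitted. The change of the strongest Mycn window stayed at 1.18 with a limma adjusted p of 0.0527. Quantile normalization gave 0 higher and 0 lower calls, against 0 and 1 over all bound windows, and a median change of 0.15. Equal library medians gave 0 higher calls, against 47 over all bound windows, and a median of 0.12. Under these 2 scalings, in this order, the change of the strongest window was -0.25 and -0.26 at Socs3, 0.94 and 0.92 at Stat3 and 0.50 and 0.48 at Mycn. It was -0.85 and -0.86 at Myc and 0.28 and 0.25 at Sall4. None was past the threshold. Both remove the rise shared by most bound windows. Without a variance trend 0 windows were higher and 0 lower, against 157 and 0 of all bound windows. At an unadjusted limma p under 0.05 they were 9 and 1, against 4893 and 131. Stat3 at 1.62 and Mycn at 1.18 were then not past the adjusted threshold, and the cause was not tested. Division by the library median turned the sums at Myc (-0.11) and Sall4 (-0.20).

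Leaving out 1 library gave 0 to 13 higher and 0 to 1 lower calls, a median change of 0.51 to 0.89 and an OCT4 difference of -0.96 to -0.44. The strongest windows ranged from 0.21 to 0.66 at Socs3, 1.33 to 1.90 at Stat3, -0.57 to 0.23 at Myc, 0.80 to 1.56 at Mycn and 0.39 to 1.50 at Sall4. Myc was reversed at 0.08 without uninduced replicate 2 and at 0.23 without IAA replicate 2. The sums ranged from 0.87 to 0.99 at Socs3, 0.65 to 1.39 at Stat3, 0.48 to 0.74 at Myc, 0.34 to 1.13 at Mycn and 0.08 to 0.95 at Sall4. With 1 library in a group, the spread was taken from the other group. Over all bound windows, higher calls also became more frequent without uninduced replicate 2 and less frequent without any other single library. The range of call counts is therefore not a result about these loci. Without either IAA library limma made 0 calls in the whole series, where 2266 and 1402 windows were higher at an unadjusted p under 0.05.

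A fit with the replicate number as a replicate block called 8 windows higher, adding Mycn window 2, and 1 lower, with the same median change of 0.82. Over all bound windows that fit called 2655 higher and 52 lower. The labels do not say whether the replicate numbers pair the libraries. The correlation of same-numbered deviations from the group means was 0.0055 over the bound windows. With few reads per window, counting error could hide a pairing, so this value does not settle it. All windows of the loci were above the threshold, so including weaker windows in the sums gave no separate value. Depth limits single windows, which held 1 to 84 reads.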
